A study of Mus musculus with 24 samples.

Results

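Transcript abundance in splenic CD4 T cells of Cat-Tg mice was compared with that in WT mice before any transplant (pre-tx), by RNA sequencing of 3 Cat-Tg and 3 WT libraries. These 6 libraries were chosen by the genotype, sorted cell type and transplant state in their labels, from 24 in the series. Cat-Tg mice carry a human β-catenin lacking its N-terminal part, the part through which the protein is marked for degradation; the construct was injected into FVB embryos, the mice were bred onto C57BL/6 and were kept heterozygous, and more than 1 founder was used. The promoter that drives the transgene in each cell type is not given in the sources used here, nor is the founder of each mouse. The WT mice shared the C57BL/6 background, and the study's methods give both genotypes as 8 to 12 weeks old and matched for age and sex. Each CD4 library came from the sorted spleen cells of 1 mouse, and the same mice gave the pre-tx CD8 libraries. The other 12 libraries hold donor CD4 or CD8 cells taken back from BALB/c recipients at day 7 after transplant (post-tx).

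β-catenin is the intracellular carrier of canonical Wnt signals. When it is not degraded it enters the nucleus and works with the DNA-binding proteins TCF-1 and LEF-1, encoded by Tcf7 and Lef1, which are themselves needed for T cell development and for the upkeep of naive and memory T cells. CD4 T cells read antigen on MHC class II molecules and help B cells through the CD40 ligand, while Foxp3-expressing regulatory T cells within the CD4 lineage hold responses in check, in part through CTLA-4.

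Ctla4 was 17.4-fold higher in Cat-Tg than in WT libraries in CPM (counts scaled to library size), Cd40lg 6.27-fold higher and Cd4 3.38-fold higher, while Cd79a, a chain of the B cell receptor complex, was at 0.0597 of its WT level. However, the WT libraries did not carry the transcripts of a CD4 T cell sort: they held more Cd8a than Cd4, and abundant B cell transcripts. Each T cell gene was therefore also measured against the summed CD3 chains, which every T cell makes, to set it against the amount of T cell transcripts. The chains did not move alike, so this takes out a difference in T cell share only as far as their sum follows it. On that scale Ctla4 was higher in Cat-Tg by 3.57-fold, or 2.22-fold after a correction for GC content and length, but it was not called against Cd3g alone. Cd40lg and Cd4 passed the test in neither direction against the sum, and were called higher against Cd3e alone. Against Cd3g alone Cd4 was called lower (a log2 fold change of -1.49) and Cd40lg was not called (-0.71). Of 152 tested T cell genes 9 were higher and 84 lower per CD3 transcript, where 0.615% of all genes were higher and 67.3% lower.

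The promoters of some of these genes hold a short TCF/LEF core sequence, searched because β-catenin reaches DNA through those proteins. The letters CTTTGAT and CTTTGAA were searched on both strands of the RefSeq windows that run from 250 bases before to 50 after a gene's start (GRCm38.p6); both motifs share all letters but the last, so a position matches only 1 of them. They were found for 2671 of 27025 genes with a window (9.88%), for 969 of 12261 genes in the expression test (7.9%), for 16 of 114 T cell list genes (14%) and for 8 of the 53 genes with a window among the 106 higher per CD3 transcript (15.1%). Of the 9 T cell genes higher per CD3 transcript, 7 had a window and 3 of those held a match. These 3 are printed 5′ to 3′ on the strand of the gene, with the match in capitals, because they belong to genes called higher per CD3 transcript. Of them, Il2 had at most 2 counts in a WT library. It was not called after the correction for GC content and length (edgeR adjusted p = 0.0888). The Ctla4 stretch lies at chr1:60909040-60909069 on the plus strand, where the match is CTTTGAT on the opposite strand and begins 27 bases after the start. The Gzmk stretch lies at chr13:113181035-113181064 on the minus strand, and the Il2 stretch at chr3:37126033-37126062 on the minus strand. Both hold CTTTGAA on the gene's own strand, beginning at -88 in Gzmk and at -97 in Il2. A match is a description of the letters, not a bound site.
Ctla4: acgtaccttggATCAAAGctgtctatataa
Gzmk: actaatagaggCTTTGAAaccttgggtgtg
Il2: acaggtagactCTTTGAAaatatgtgtaat

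What the libraries held was examined first. Their depth was 19283369 to 27015725 estimated counts in Cat-Tg and 17103414 to 19691809 in WT, so that 3 counts, the least that was read as detection, were worth 0.111 to 0.175 CPM. Cd8a, the CD8 co-receptor chain, made up 2.49%, 3.39% and 1.27% of Cd4 and Cd8a together in Cat-Tg replicates 1 to 3 (2.39% ± 1.06, SD, n = 3). In WT replicates 1 to 3 it made up 65.4%, 52.4% and 65% (60.9% ± 7.37, n = 3). The WT CD4 values lay where the WT CD8 pre-tx libraries lay (50% to 63.9%), whereas the Cat-Tg CD8 pre-tx libraries were at 99.3% to 99.9% and all CD4 post-tx libraries were at 0.635% or less. In a fit of all 24 libraries, only 4 of 19086 genes (Wrn, Lars2, AI854703 and Slc27a4, 0.021%) differed between the WT CD4 and the WT CD8 pre-tx libraries by edgeR's quasi-likelihood test at an adjusted p of at most 0.05, and 2651 had an unadjusted p under 0.05. The libraries labelled WT CD4 pre-tx thus went against their label in the co-receptor, and each direction below is drawn from the libraries as labelled.

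The summed CD3 chains Cd3e, Cd3d and Cd3g summed to 2810, 4220 and 3090 CPM in the Cat-Tg replicates and to 838, 719 and 618 in the WT replicates. All Cat-Tg libraries were above all WT libraries, by 4.65-fold in the means (3370 ± 750 against 725 ± 110, n = 3 each). Conversely, 17 B cell identity genes summed to 4990 ± 879 in Cat-Tg and 21300 ± 1680 in WT. Per CD3 count, B cell counts were 1.55 ± 0.489 in Cat-Tg and 29.6 ± 2.44 in WT, so B cell transcripts were present in both genotypes and far outnumbered the CD3 chains in WT. The groups did not overlap in any of these 4 measures, for which the exact two-sided permutation test gave p = 0.1, the smallest that 3 against 3 allows. In bulk libraries fewer cells of a type and less RNA per cell cannot be told apart.

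**Figure D1:**
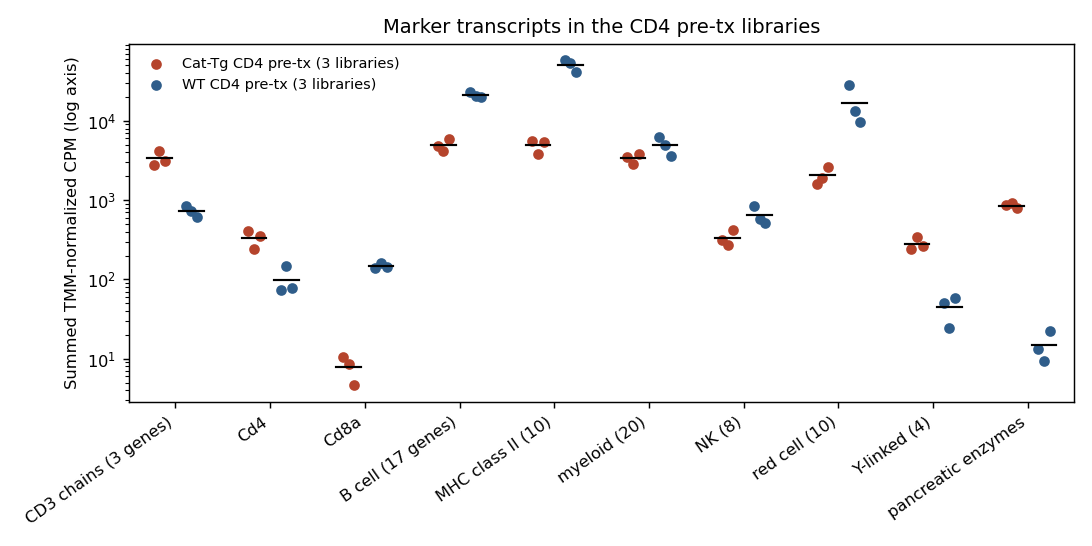
Points show summed TMM-normalized CPM (log axis) of single markers and marker lists in each of the 3 Cat-Tg and 3 WT CD4 pre-tx libraries, with a bar at the group mean. CD3 chains, Cd4, Y-linked and pancreatic enzyme transcripts lay higher in Cat-Tg, while Cd8a, B cell, MHC class II and red cell transcripts lay higher in WT.

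Other transcripts moved with the genotype as well. MHC class II presentation genes summed to 4960 ± 1010 CPM in Cat-Tg and 50900 ± 8570 in WT, and red cell genes to 2060 ± 540 and 16900 ± 9730. NK cell genes were at 334 ± 73.1 and 647 ± 183 CPM, and myeloid and dendritic cell genes at 3390 ± 531 and 4920 ± 1320, where the groups overlapped (exact permutation p = 0.2). Among 4 Y-linked genes, Ddx3y was at 81.7, 137 and 80.4 CPM in Cat-Tg and at 0.355, 0.0997 and 0.205 in WT. Eif2s3y was at 51.3, 93.7 and 71.8 CPM in Cat-Tg and at 0.651, 0.249 and 0.564 in WT. Kdm5d (73.8 against 32.7 CPM) and Uty (37 against 11.3) were present in both genotypes. Ddx3y and Eif2s3y were thus near 0 in every WT library and high in every Cat-Tg library, although the methods state sex-matched mice; the prefix of the library names in the labels, which also follows the genotype, these transcripts and the genotype cannot be told apart. Transcripts of pancreatic digestive enzymes, a list drawn up after the values were seen, summed to 854 ± 64.1 CPM in Cat-Tg and 15 ± 6.68 in WT. Their part in the results below was not tested.

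Which genes differed between Cat-Tg and WT CD4 libraries was first asked on the TMM scale, that is, in CPM after edgeR's scaling. Of 17237 genes tested, 1320 were differentially expressed (DEG, adjusted p at most 0.05 and at least 4-fold, a log2 fold change of 2), of which 858 were higher in Cat-Tg (4.98% of those tested) and 462 lower (2.68%). Without the limit on size, 2284 genes were higher (13.3%) and 1234 lower (7.16%) at that adjusted p, 36.6% of all genes had groups that did not overlap, and the median log2 fold change over all tested genes was 0.03. The balance of the directions depended on the scaling: 65% of DEGs were higher under TMM over 12 libraries, but 50.8% with DESeq2's size factors in edgeR (593 higher, 574 lower), 48.2% with DESeq2 (626 and 672) and 50.7% when only the 6 libraries were fitted (613 and 597). The median over all genes moved to -0.17 under DESeq2, so directions of genes near no change are not read here. Leaving out Cat-Tg replicate 2 or WT replicate 1 lowered the count of DEGs to 854 and 857.

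The CD3 chains themselves rose unequally. Cd3e was at 469, 435 and 477 CPM in Cat-Tg and 330, 253 and 231 in WT, a log2 fold change of 0.76 ± 0.213 (SE, edgeR adjusted p = 0.0181). Leaving out any library but Cat-Tg replicate 2 lost that call, with 0.43 without WT replicate 3 as the lowest value (adjusted p = 0.257). Cd3d was at 1110, 1720 and 1230 CPM against 378, 283 and 263, a change of 2.14 ± 0.24 (adjusted p = 4.15e-05). Cd3g was at 1220, 2070 and 1380 CPM against 131, 183 and 124, a change of 3.42 ± 0.327 (adjusted p = 1.1e-05). No chain overlapped between the groups. The T cell receptor constant chains lay between them, at 1.51 for Trac, 2.1 for Trbc2 and 2.86 for Trbc1. A T cell gene was read as exceeding the change in CD3 only with this spread in view.

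Ctla4 encodes the inhibitory receptor CTLA-4, which competes with CD28 for its ligands. It was at 64, 103 and 95.9 CPM in Cat-Tg and at 3.31, 4.69 and 7.12 in WT. Its log2 fold change was 4.12 ± 0.394 (edgeR adjusted p = 1.1e-05). All Cat-Tg libraries lay far above all WT libraries. Per 1000 CD3 counts, Ctla4 was at 22.8, 24.4 and 31.1 in Cat-Tg and 3.95, 6.52 and 11.5 in WT, still without overlap, and its log2 fold change was 1.83 ± 0.414 (adjusted p = 0.00107).

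Cd40lg, the ligand by which CD4 cells help B cells, was at 52, 46.4 and 44.4 CPM in Cat-Tg and at 4.79, 8.77 and 9.17 in WT. It rose by 2.65 ± 0.385 on the log2 scale (edgeR adjusted p = 0.000245). Per 1000 CD3 counts, however, it was at 18.5, 11 and 14.4 in Cat-Tg and 5.72, 12.2 and 14.8 in WT. The groups overlapped on that scale, and the difference of 0.42 ± 0.422 did not pass the test (adjusted p = 0.365). Cd4, the co-receptor, was at 409, 245 and 357 CPM in Cat-Tg and at 73, 148 and 77.8 in WT, higher by 1.76 ± 0.278 (adjusted p = 0.000458). Per 1000 CD3 counts it was at 146, 58 and 116 in Cat-Tg and at 87.1, 206 and 126 in WT, an overlap with a difference of -0.39 ± 0.337 (adjusted p = 0.297). Thus the Cd4 level per CD3 count was not distinguishable between libraries that differed widely in Cd8a.

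Cd8a was at 10.5, 8.6 and 4.6 CPM in Cat-Tg and at 138, 163 and 144 in WT, lower by 4.23 on the log2 scale (a fold change of -4.23 ± 0.564, edgeR adjusted p = 0.000133). Cd8b1, its partner chain, was at 36.9, 17.8 and 31.5 CPM in Cat-Tg and 272, 318 and 269 in WT (-3.31). Per CD3 transcript the differences grew to -6.42 for Cd8a and -5.45 for Cd8b1 (-6.16 and -5.17 with the correction). The WT CD3 counts therefore stood beside many CD8 transcripts, and what share of them came from CD8 cells was not tested. Cd79a was at 168, 109 and 158 CPM in Cat-Tg and at 2660, 2510 and 2110 in WT (-4.07 ± 0.38, adjusted p = 9.59e-06). It marks B cells and was detected in each of the 6 libraries.

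Over all 17237 genes, the CD3 scale shifted the median log2 fold change to -2.17, since CD3 counts were 4.65-fold higher in Cat-Tg. By edgeR's test 106 genes were higher per CD3 transcript (0.615%) and 11597 were lower (67.3%), each with an adjusted p within 0.05, and 73% of genes had groups that did not overlap. Genes of every cell type enter this count. Apart from Cd69 and a ranking of the highest genes further on, only genes of 10 T cell lists are therefore described on this scale. Their 152 tested members (of 157) had a median of 1.08 under TMM, with 79 higher, 20 lower and 53 that did not pass. Per CD3 transcript the median was -1.08, with 9 higher, 84 lower and 59 that did not pass. The counts of each T cell list below stand beside the shares of all genes. These were 13.3% higher and 7.16% lower under TMM, and 0.615% and 67.3% per CD3 transcript.

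**Figure D2:**
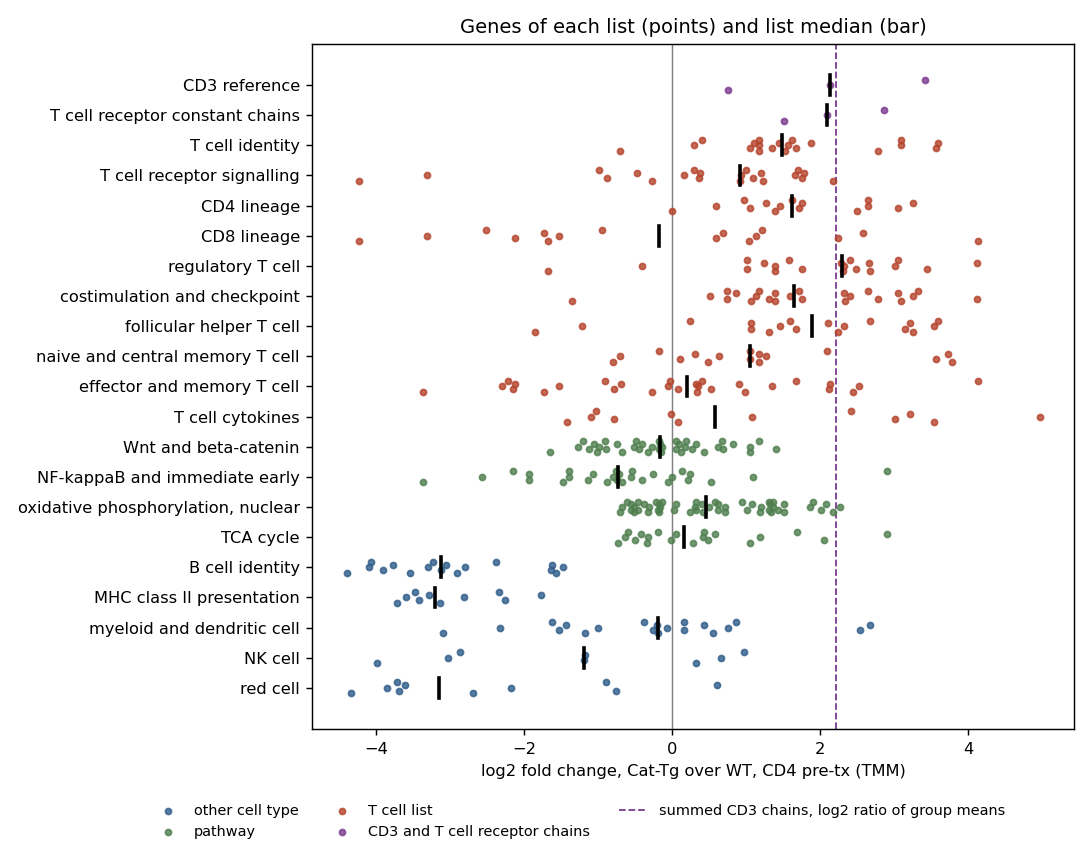
Each point is the TMM log2 fold change of 1 gene, Cat-Tg over WT in CD4 pre-tx libraries, grouped by list, with a black bar at the list median and a dashed line at the log2 ratio of the summed CD3 chains (2.22). Medians of the T cell lists lay from -0.17 (CD8 lineage) to 2.29 (regulatory T cell), and those of the B cell and MHC class II lists lay at -3.12 and -3.21.

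The 9 T cell genes higher per CD3 transcript were Ctla4, Gzmk, Nt5e, Ms4a6b, Ms4a4b, Il7r, Cd28, Sh2d1a and Il2. Gzmk, a granzyme protease, was at 26.5, 28.4 and 34 CPM in Cat-Tg and 1.01, 2.39 and 1.64 in WT (TMM log2 fold change 4.13 ± 0.421). Per 1000 CD3 counts it was at 9.46, 6.72 and 11 in Cat-Tg and at 1.2, 3.33 and 2.65 in WT. That is a 3.78-fold higher level without overlap (log2 1.92 ± 0.434, edgeR adjusted p = 0.00108). Gzmk stood among the CD8 lineage and effector genes of the lists, most of which were lower, as described further on.

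Nt5e encodes CD73, an ectoenzyme that makes adenosine and is carried by regulatory T cells among others. It was at 75.6, 101 and 121 CPM in Cat-Tg and 9.06, 14.9 and 3.28 in WT, and per 1000 CD3 counts at 27, 23.9 and 39.1 against 10.8, 20.7 and 5.31. WT replicate 2 came close to the lowest Cat-Tg library, and the log2 fold change per CD3 of 1.29 ± 0.439 (edgeR adjusted p = 0.0169) was no longer called without Cat-Tg replicate 3 (1.05, adjusted p = 0.0769), without WT replicate 3 (0.93, adjusted p = 0.0685) or from length-scaled TPM (0.6, adjusted p = 0.202). Ms4a6b encodes a membrane protein that T cells carry. It was at 1290, 2360 and 1600 CPM in Cat-Tg and 89.5, 167 and 124 in WT, and per 1000 CD3 counts at 461, 560 and 518 against 107, 233 and 200. Its groups did not overlap and its log2 fold change per CD3 was 1.51 ± 0.36 (adjusted p = 0.00163).

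Ms4a4b, of the same gene family, was at 663 ± 136 per 1000 CD3 counts in Cat-Tg and 249 ± 119 in WT (n = 3 each), a log2 fold change of 1.41 ± 0.443 (edgeR adjusted p = 0.0105). Il7r, the receptor chain for the survival cytokine IL-7, was at 124 ± 2.54 and 50.9 ± 26.3 (1.29 ± 0.447, adjusted p = 0.0182, and 0.91 without WT replicate 1, adjusted p = 0.0667). Sh2d1a, which encodes the adaptor SAP used in T cell help, was at 52.5 ± 7.64 and 21.1 ± 4.42 (1.32 ± 0.299, adjusted p = 0.00112). These 3 genes lay above WT in every Cat-Tg library. Cd28, the costimulatory receptor whose ligands CTLA-4 shares, was at 51.8 ± 8.47 and 28.9 ± 12.3 per 1000 CD3 counts, and its call was close to the threshold (0.84 ± 0.358, adjusted p = 0.0452) and held without WT replicate 2 but not without any other library (0.55 without WT replicate 1, adjusted p = 0.165). Il2, the T cell growth cytokine, had at most 2 counts in a WT library and at least 23 in a Cat-Tg library. Set against a floor of 3 counts per library it was at least 10.3-fold higher in CPM and at least 2.33-fold higher per CD3 count (edgeR adjusted p = 0.0286, and 0.0534 to 0.0827 without Cat-Tg replicate 1 or 3 or WT replicate 2 or 3).

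**Figure D3:**
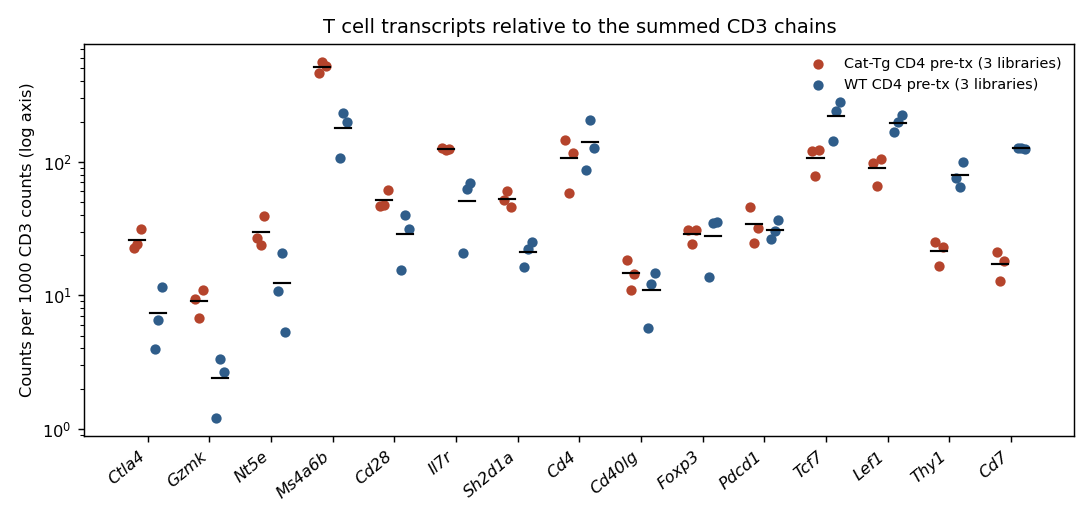
Points show counts per 1000 CD3 counts (log axis) of 15 T cell genes in each of the 3 Cat-Tg and 3 WT CD4 pre-tx libraries, with a bar at the group mean. Ctla4, Gzmk and Ms4a6b lay wholly above WT, Cd4 and Cd40lg overlapped, and Thy1 and Cd7 lay wholly below WT.

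How far these calls depended on the choice of chain follows from the unequal rise of the CD3 genes. With Cd3e alone as the reference 41 T cell genes were higher and 33 lower, with Cd3d alone 8 were higher and 79 lower, and with Cd3g alone edgeR called 0 higher, also at an unadjusted p of at most 0.05 and with limma-voom, and 118 lower. Ctla4, Gzmk, Ms4a6b and Nt5e were called against Cd3e alone and against Cd3d alone. Against Cd3g alone the log2 fold changes were 0.67 for Ctla4 (adjusted p = 0.133), 0.81 for Gzmk (adjusted p = 0.0646), 0.37 for Ms4a6b (adjusted p = 0.299) and 0.16 for Nt5e (adjusted p = 0.74).

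The genes that were not called against the summed chains also depended on this choice. Against Cd3e alone, Cd40lg was called higher (1.81, edgeR adjusted p = 0.00812), as was Cd4 (0.93, adjusted p = 0.0244). Against Cd3g alone Cd4 was called lower (-1.49, adjusted p = 0.00499) and Cd40lg passed in neither direction (-0.71, adjusted p = 0.1). Among the regulatory and checkpoint genes described further on, Foxp3 (1.43, adjusted p = 0.0197), Il2ra (1.91), Ikzf2 (2.26), Izumo1r (1.9), Pdcd1 (1.52), Tnfrsf4 (1.66), Icos (2.4) and Rora (1.89) were called higher against Cd3e alone, as was Il4 (2.75). Of the genes described as lower, Thy1 (-0.49, adjusted p = 0.254), Ccr7 (-0.31, adjusted p = 0.321), S1pr1 (-0.52), Ltb (-0.78), Zbtb7b (-0.21) and Il6ra (-0.79) lost their calls against Cd3e alone, while Cd7 (-1.47), Vav1 (-1.24), Nfatc1 (-1.79), Gzma (-4.19), Cxcr5 (-2.64) and Cd8a (-5.03) stayed lower.

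The fold changes also followed base composition. The median TMM log2 fold change over genes fell from 0.7 in the fifth of genes with the lowest GC content (30.9% to 44.3%) through 0.51, 0.03 and -0.35 to -0.53 in the fifth with the highest (55.3% to 72.1%). For the post-tx Cat-Tg and WT CD4 libraries the same medians ran the other way, from -0.78 to 0.22. Across the 152 T cell genes, which share the 6 libraries, the Pearson correlation of the TMM fold change with GC content was -0.4 and the Spearman correlation -0.44. After a smooth correction of each library for GC content and length the latter was -0.08. Whether this gradient arose in the libraries or in the cells was not tested. Values with the correction are given beside those without it for part of the genes and lists only.

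**Figure D4:**
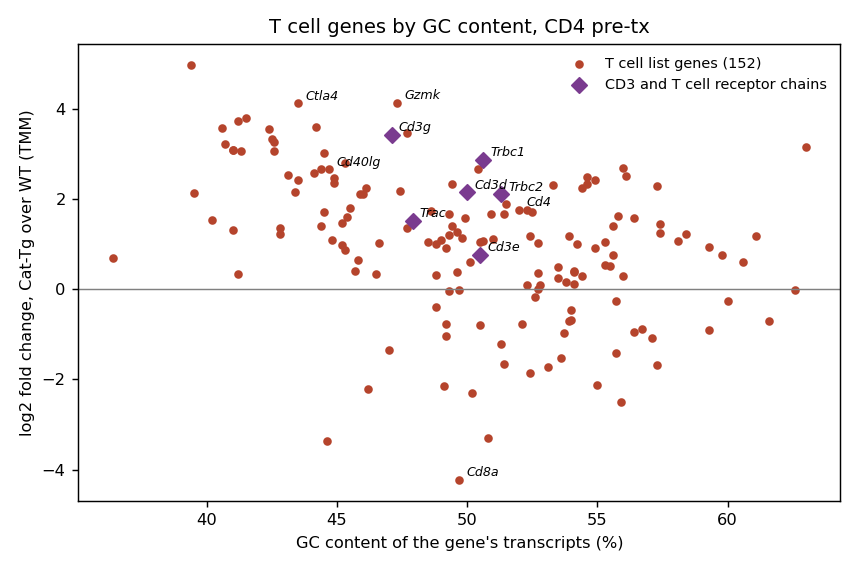
Each point is a T cell list gene (152) or, as a diamond, a CD3 or T cell receptor chain, with the GC content of its transcripts (%) against its TMM log2 fold change, Cat-Tg over WT. Genes of low GC content, Ctla4 and Cd3g among them, lay higher than genes of high GC content (Spearman -0.44).

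With the correction, 8 T cell genes were higher per CD3 transcript (against 0.522% of all genes) and 80 lower (against 69.5%), and the list median moved from -1.08 to -0.82 while that of all genes moved to -1.92. Higher with and without the correction were 4 genes, Ctla4, Gzmk, Nt5e and Ms4a6b, and 71 were lower with and without it. Their corrected log2 fold changes were 1.15 for Ctla4 (edgeR adjusted p = 0.00515), 1.51 for Gzmk (adjusted p = 0.00271), 1.4 for Nt5e (adjusted p = 0.00604) and 0.72 for Ms4a6b (adjusted p = 0.0118). Ms4a4b (0.35), Il7r (0.74), Sh2d1a (0.35), Cd28 (0.36) and Il2 (2.06) were no longer called. Instead, Pdcd1, Izumo1r, Tnfrsf4 and Rora were called only after the correction.

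**Figure D5:**
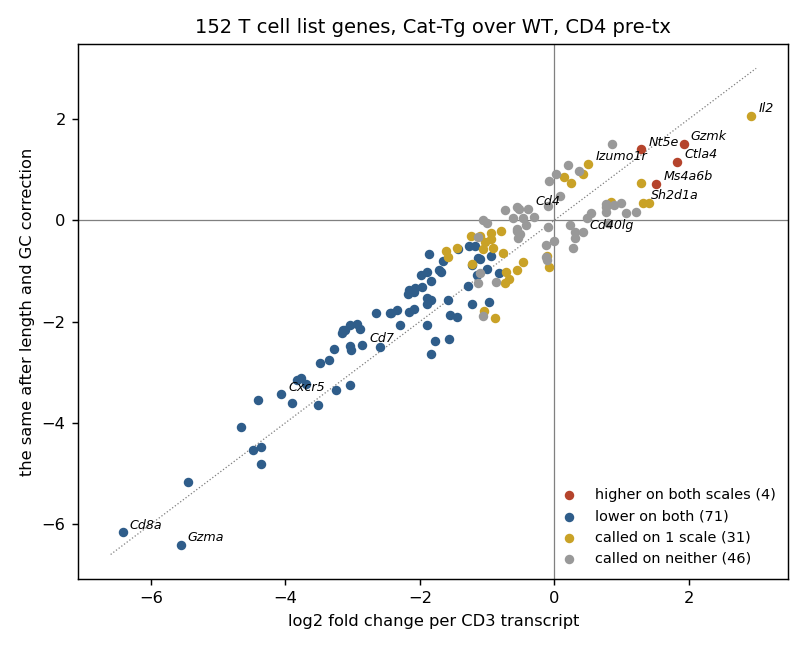
Each point is 1 of 152 T cell list genes, with its log2 fold change per CD3 transcript (Cat-Tg over WT) on the x axis and the same after correction for length and GC content on the y axis, coloured by the calls. Ctla4, Gzmk, Nt5e and Ms4a6b were higher on both scales, 71 genes lower on both, 31 called on 1 scale and 46 on neither.

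The regulatory T cell list had the highest median of the T cell lists. Of its 20 genes 14 were higher under TMM and 1 lower (median 2.29), close to the 2.22 of the CD3 chains, and per CD3 transcript 2 were higher and 5 lower (median -0.03). Foxp3, the lineage's defining transcription factor, was at 86.3, 102 and 95.6 CPM in Cat-Tg and 11.6, 25.1 and 21.8 in WT (2.28 ± 0.371, edgeR adjusted p = 0.000558). Per 1000 CD3 counts it was at 28.6 ± 3.92 and 28 ± 12.3, a difference of 0.03 ± 0.44 that did not pass (adjusted p = 0.953), and 0.91 with the correction (adjusted p = 0.0587). Il2ra, the IL-2 receptor chain CD25, differed per CD3 by 0.48 ± 0.308 (adjusted p = 0.171), and Ikzf2, which encodes Helios, by 0.77 ± 0.436 (adjusted p = 0.121, and by 1.19 without WT replicate 3, adjusted p = 0.0374). Izumo1r, which encodes a surface protein carried by regulatory T cells, was at 120 ± 26.1 and 85.3 ± 7.32 per 1000 CD3 counts (0.5 ± 0.369, adjusted p = 0.227) and reached 1.11 with the correction (adjusted p = 0.0013). Ctla4 and Nt5e, both members of this list, were thus higher against the summed chains, and Foxp3 was not. Each of these results depended on the chain: against Cd3g alone Ctla4 (0.67, adjusted p = 0.133) and Nt5e (0.16, adjusted p = 0.74) were not called. With the correction 4 of the 20 were higher and 2 lower (median 0).

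Costimulation and checkpoint genes were higher in 19 of 24 under TMM and lower in 1 (median 1.65). Per CD3 transcript 2 were higher, Ctla4 and Cd28, and 11 lower (median -0.62), and with the correction 3 and 8 (median -0.39). Icos, a CD28-like receptor of helper cells, was at 41.8 ± 3.46 per 1000 CD3 counts in Cat-Tg and 21.1 ± 11.3 in WT (0.99 ± 0.488, edgeR adjusted p = 0.0803, and 0.35 with the correction). Pdcd1, the PD-1 receptor, was at 129, 104 and 98.6 CPM against 22.3, 21.7 and 22.5 (2.32 ± 0.217, adjusted p = 9.59e-06), but differed per CD3 by 0.14 (adjusted p = 0.647) and with the correction by 0.85 (adjusted p = 0.00516). Tnfrsf4, the OX40 receptor, behaved likewise, with 0.24 ± 0.294 per CD3 (adjusted p = 0.464) and 0.73 with the correction (adjusted p = 0.00283). The lowest member was Cd244a, a receptor of NK and CD8 cells, at -3.52 per CD3 (-3.65 with the correction) and -1.35 under TMM.

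In the CD4 lineage list 12 of 15 genes were higher under TMM (median 1.62), and per CD3 transcript 5 were lower (median -0.56), or 3 with the correction and Rora higher (median -0.24). Rora, a nuclear receptor of helper subsets, was at 8.83 ± 0.368 per 1000 CD3 counts in Cat-Tg and 6.55 ± 0.15 in WT, without overlap, a difference of 0.43 ± 0.327 that did not pass (edgeR adjusted p = 0.239) and of 0.91 that did with the correction (adjusted p = 0.0099). Zbtb7b, which encodes the CD4 lineage factor ThPOK, was at 12.5 ± 2.06 and 38.3 ± 8.58 (-1.62 ± 0.414, adjusted p = 0.00274, and -0.61 with the correction, adjusted p = 0.0724). Il6ra, an IL-6 receptor chain that other leukocytes also make, was level in CPM (55.3 ± 15.3 and 55.3 ± 2.55) and so at -2.16 per CD3 (-1.38 with the correction). Since Cd8a stood beside CD3 in WT, the 34 tested genes of the CD4 lineage and regulatory lists were also set against Cd4 itself. Then 4 were higher, Ctla4 (2.33, adjusted p = 0.000463), Nt5e (1.81, adjusted p = 0.00223), Icos (1.59, adjusted p = 0.00976) and Tnfsf8, the CD30 ligand (1.4, adjusted p = 0.0149), and 4 were lower, Zbtb7b, Il6ra, Capg and Entpd1. Against CD3 2 of the 34 were higher and 10 lower. On the Cd4 scale no correction for GC content and length was made, and no share of all genes was taken. Under TMM with the correction, Cd4 rose by 2.09, Ctla4 by 3.09 and Nt5e by 3.23. Icos (2.27) and Tnfsf8 (2.2) then rose by little more than Cd4. The 4 lower genes lay below Cd4 there, from -1.27 for Capg to 1.33 for Zbtb7b.

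T cell identity genes were higher in 16 of 20 under TMM and lower in 1 (median 1.49), and per CD3 transcript 3 were higher and 7 lower (median -0.73). With the correction those 3 were no longer called and 6 were lower (median -0.17). Tcf7, which encodes TCF-1, was at 337, 332 and 380 CPM in Cat-Tg and 119, 171 and 173 in WT (1.18 ± 0.222, edgeR adjusted p = 0.00153). Lef1 was at 274, 277 and 324 CPM in Cat-Tg and 141, 142 and 138 in WT (1.05 ± 0.226, adjusted p = 0.00374, but 0.81 without WT replicate 1, adjusted p = 0.0625, and 0.82 without WT replicate 3, adjusted p = 0.0509). Both β-catenin partners thus rose in CPM, by less than the summed CD3 chains: per 1000 CD3 counts Tcf7 was at 107 ± 24.8 against 220 ± 70.4 (-1.04 ± 0.299, adjusted p = 0.00627, and -0.43 with the correction, adjusted p = 0.142), and Lef1 at 89.4 ± 20.9 against 197 ± 27.5 (-1.14 ± 0.308, adjusted p = 0.00417, and -0.74 with the correction, adjusted p = 0.0225). Against Cd3e alone their signs turned, to 0.35 for Tcf7 and 0.26 for Lef1.

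Thy1, a surface marker of mouse T cells, was at 70, 69.7 and 71.2 CPM in Cat-Tg and 63.2, 46.8 and 61.4 in WT. It did not pass under TMM (0.3 ± 0.318, edgeR adjusted p = 0.602) and was lower per CD3 transcript (-1.89 ± 0.385, adjusted p = 0.000445, and -1.53 with the correction). Cd7, a surface protein of T and NK cells, was the lower one of the list under TMM, at 59, 53.7 and 56.2 CPM against 106, 91.5 and 77 (-0.7 ± 0.224, adjusted p = 0.0373). Per 1000 CD3 counts it was at 17.3 ± 4.23 in Cat-Tg and 126 ± 1.35 in WT (-2.86 ± 0.296, adjusted p = 1.17e-06, and -2.47 with the correction). Per CD3 count both markers lay below WT in every Cat-Tg library.

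T cell receptor signalling genes were higher in 11 of 21 under TMM and lower in 4 (median 0.92), and 16 were lower per CD3 transcript (median -1.27, and 15 with the correction, median -0.83), a share near the 67.3% of all genes. Vav1, an exchange factor of leukocytes, was at 56 ± 10.5 and 351 ± 52.8 per 1000 CD3 counts (-2.65 ± 0.264, edgeR adjusted p = 9.14e-07, and -1.84 with the correction). Nfatc1, a calcium-dependent transcription factor that B cells also use, was at 34.4 ± 10.8 and 306 ± 68.1 (-3.16 ± 0.327, adjusted p = 1.18e-06, and -2.23 with the correction). Both are made by B cells as well, whose transcripts were higher in WT, and how much of their WT level came from B cells was not tested.

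Naive and central memory genes were higher in 9 of 16 under TMM (median 1.05). Per CD3 transcript 3 were higher and 12 lower (median -1.12), beside 67.3% of all genes lower, and with the correction 1 was higher and 8 lower (median -0.76). Ccr7, the receptor that leads cells into lymph nodes, was at 295 ± 77.8 and 949 ± 214 per 1000 CD3 counts (-1.69 ± 0.268, edgeR adjusted p = 4.62e-05, and -1.03 with the correction). S1pr1, which guides exit from lymphoid tissue, differed by -1.89 (-1.66 with the correction) and Klf2, the factor that drives S1pr1, by -2.94 (-2.05). All 3 are also made by B cells.

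Effector and memory genes were split under TMM, with 9 of 28 higher and 8 lower (median 0.2). Per CD3 transcript 22 were lower and Gzmk alone higher (median -1.99, and 24 lower with the correction, median -1.94), a median near the -2.17 of all genes. Gzma, a granzyme of NK and cytotoxic T cells, was at 10.3, 7.4 and 7.07 CPM in Cat-Tg and 64.5, 97.3 and 94.5 in WT (-3.36 ± 0.422, edgeR adjusted p = 8.54e-05), and per CD3 at -5.56 (-6.41 with the correction). Gzmb was at 1.33 ± 0.457 and 27.3 ± 6.39 per 1000 CD3 counts (-4.36 ± 0.422, adjusted p = 8.01e-07, and -4.81 with the correction). The chemokine gene Ccl5 (-3.7, and -3.24 with the correction) and Nkg7, a granule membrane protein gene (-3.9, and -3.61), were lower too. Gzmk thus moved opposite to the other granzymes named, and the NK cell list (3 of 8 genes lower under TMM, median -1.18) and Cd8a moved with Gzma and Gzmb.

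The CD8 lineage list itself was higher in 4 of 16 genes and lower in 7 under TMM (median -0.17), and lower in 11 per CD3 transcript (median -2.37, and 12 with the correction, median -2.26), with Gzmk the higher one. Count and median lay near those of all genes, 67.3% lower and -2.17. Eomes, a transcription factor of memory CD8 and NK cells, was at 0.821 ± 0.331 and 17.4 ± 13.4 per 1000 CD3 counts (-4.41 ± 0.704, edgeR adjusted p = 4.81e-05, and -3.55 with the correction). Runx3, the CD8 lineage factor, was at 10.7 ± 3.34 and 94.5 ± 31.6 (-3.14 ± 0.35, adjusted p = 1.99e-06, and -2.16 with the correction).

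Follicular helper genes were higher in 13 of 18 under TMM and lower in 1 (median 1.89), and per CD3 transcript 1, Sh2d1a, was higher and 5 lower (median -0.32), and with the correction 2 were higher and 7 lower (median -0.09). Cxcr5, the receptor that takes B cells and follicular helper cells to follicles, was at 77.7, 80.2 and 66 CPM in Cat-Tg and 269, 264 and 276 in WT (-1.85 ± 0.246, edgeR adjusted p = 0.000131), and at -4.06 per CD3 (-3.44 with the correction). Bcl6, the transcription factor of germinal centre B cells and follicular helper cells, was at -3.35 per CD3 (-2.76 with the correction). Of 17 T cell cytokine genes 12 were tested, with 5 higher and 2 lower under TMM (median 0.58) and 1 higher and 6 lower per CD3 transcript (median -1.58, and 6 lower with the correction, median -1.43). Il4, a type 2 helper cytokine, was at 8.97 ± 4.48 and 0.766 ± 0.415 CPM (3.54 ± 0.626, adjusted p = 0.00098), and per CD3 it differed by 1.22 ± 0.655 (adjusted p = 0.104, and by 1.87 without WT replicate 3, adjusted p = 0.0343). Ltb, a lymphotoxin chain that B cells make as well, was at 582 ± 127 and 2650 ± 320 per 1000 CD3 counts (-2.18, and -1.45 with the correction).

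β-catenin targets and regulators were then examined in CPM. Ctnnb1, the mouse β-catenin gene, was at 80.9, 49.4 and 82.1 CPM in Cat-Tg and at 44.9, 77.6 and 63.1 in WT, with overlap (0.19 ± 0.289, edgeR adjusted p = 0.733). The transgene is the human sequence, and whether reads from it were assigned to the mouse gene was not tested, so this value does not check the labels. Of 39 tested Wnt and β-catenin genes (of 43) 4 were higher and 3 lower (median -0.16). The 4 were Rnf43, a Wnt receptor ubiquitin ligase (1.4 ± 0.414, adjusted p = 0.0248), Csnk1a1, a kinase of the β-catenin destruction complex (1.06 ± 0.3, adjusted p = 0.0191), Tcf7 and Lef1. The 3 were Dvl3, a Dishevelled relay (-1.01), and the growth genes Myc (-1.12) and Ccnd1 (-1.65). Single libraries decided these calls other than that of Tcf7. Rnf43 was not called without Cat-Tg replicate 1 or 2 or WT replicate 1 or 3 (0.9 to 1.36), nor Csnk1a1 without Cat-Tg replicate 1 or 3 or WT replicate 1 or 3 (0.5 to 1.02). Myc lost its call without Cat-Tg replicate 2 or 3 or WT replicate 1 or 2 (-1.19 to -1.04), Ccnd1 without any library but WT replicate 3 (-1.79 to -1.53), and Dvl3 without Cat-Tg replicate 2 or WT replicate 2 (-0.94 and -1.07). Axin2, a widely used β-catenin target, was low in both groups, at 2.59 ± 1.23 and 1.93 ± 1.25 CPM (0.43, adjusted p = 0.743). The 4 higher and 3 lower of 39 stand beside 13.3% and 7.16% of all genes. With the correction for GC content and length 4 were higher and 2 lower (median -0.1), beside 9.47% and 5.26% of all genes. Over the alternative settings Dvl3 ranged from -1.33 to -0.29, Myc from -1.55 to -0.56 and Ccnd1 from -2.11 to -1.27. Rnf43 ranged from 0.88 to 1.95 and Csnk1a1 from 0.5 to 1.27.

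Oxidative phosphorylation genes encoded in the nucleus were higher in 20 of 52 and lower in 0 (median 0.46), beside 13.3% and 7.16% of all genes. After the correction for GC content and length 22 were higher and 1 lower (median 0.53), beside 9.47% and 5.26% of all genes. Uqcrb, of complex III, was at 161 ± 45.6 and 33.2 ± 4.52 CPM (2.27 ± 0.339, edgeR adjusted p = 3e-04, but 0.9 with the correction), and Ndufs1, of complex I, at 98.4 ± 7.99 and 21.8 ± 17.9 (2.17 ± 0.531, adjusted p = 0.00856, and 1.58 with the correction, and 1.84 without WT replicate 3, adjusted p = 0.0556). Of 20 TCA cycle genes 4 were higher and 1 lower (median 0.16), beside 13.3% and 7.16% of all genes. Sucla2, a subunit of succinyl-CoA synthetase, was at 114 ± 33.7 and 15.3 ± 6.24 CPM (2.9 ± 0.43, adjusted p = 0.000291, and 1.87 with the correction). Every cell type makes these genes, and no value here ties them to T cells.

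NF-κB and immediate early genes were mostly lower or did not pass, with 9 of 28 tested lower and 1 higher (median -0.73), beside 7.16% and 13.3% of all genes. With the correction for GC content and length 9 were lower and 2 higher, and the median was -0.35. Jun was at 12.3, 0.285 and 16.4 CPM in Cat-Tg and at 111, 92.5 and 96.1 in WT (-3.36 ± 0.747, edgeR adjusted p = 0.00499). Cat-Tg replicate 2 was far under the other two. Fos, its AP-1 partner, was at 3.87 ± 2.85 and 23.2 ± 7.86 CPM (-2.57 ± 0.557, adjusted p = 0.00394), and the NF-κB genes Nfkb2 (-1.47 ± 0.303, but -0.69 with the correction) and Nfkbie (-1.93 ± 0.301) were lower as well. The higher member was Cd69, an early activation receptor that retains cells in tissue, at 140 ± 42.2 and 18.7 ± 6.78 CPM (2.9 ± 0.387, adjusted p = 0.000133, and 1.77 with the correction). Per CD3 count its level in Cat-Tg was 1.52 times that in WT, a difference that did not pass (adjusted p = 0.173).

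Genes of other cell types were mostly lower in Cat-Tg. All 17 B cell genes and all 10 MHC class II genes were lower under TMM (medians -3.12 and -3.21). Cd74, the MHC class II invariant chain, was at 2020 ± 454 and 24400 ± 4160 CPM (-3.59 ± 0.253, edgeR adjusted p = 2.5e-06). Ighm, the IgM heavy chain, differed less, at 2500 ± 523 and 6940 ± 318 (-1.47 ± 0.257). Of 20 myeloid and dendritic genes 2 were higher, Spic (2.67 ± 0.458, adjusted p = 8e-04) and Vcam1 (2.54 ± 0.411, adjusted p = 0.000533). Another 5 were lower, Lyz2 (-1.52), a lysozyme of myeloid cells, among them, and 13 did not pass (median -0.2). All genes were higher in 13.3% and lower in 7.16%. Spic was at 204, 260 and 211 CPM in Cat-Tg and 37.3, 29.5 and 39.5 in WT; the groups did not overlap. Red cell genes were lower in 6 of 10 (median -3.15), beside 7.16% of all genes.

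DEGs were ranked by size among protein-coding genes whose groups did not overlap, with at least 10 CPM in the higher group. The top of that ranking did not hold T cell genes. The highest changes were those of the Y-linked Gm21773, Gm29644, Srsy and Ddx3y and of Amy2a1, a pancreatic amylase gene with near-identical copies among which reads may be split. Srsy was at least 193-fold and Amy2a1 at least 300-fold higher against the floor of 3 counts per WT library. Per CD3 transcript the same genes led, followed by Gm33815, Gm21292, Eif2s3y, Gm28079 and the pancreatic lipase gene Pnlip, which was at 52.4, 42.4 and 57.6 CPM in Cat-Tg and 0.178, 0.0997 and 0.974 in WT. The lowest were Amigo3, Alox15, Rhbdf1, Alpl and Shisa8. Alox15, a lipoxygenase gene of macrophages and eosinophils, was at 0.388 ± 0.525 CPM in Cat-Tg and 30.3 ± 22.9 in WT, Rhbdf1 at 0.613 ± 0.259 and 25.3 ± 7.78, and Alpl, alkaline phosphatase, at 0.579 ± 0.222 and 23.8 ± 12.7.

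Of 14 genes whose proteins had been measured on separate T cells, 5 were higher and 4 lower under TMM (median 0.24), beside 13.3% and 7.16% of all genes. The adhesion and chemokine signalling lists were drawn from these samples and are no independent evidence of direction. Of 16 adhesion genes 2 were higher and 12 lower (median -2.68), and of 14 chemokine signalling genes 9 were lower (median -1.84). These lists hold genes of myeloid and B cells, and the lower direction stood beside the lower B cell and MHC class II sums of the Cat-Tg libraries.

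Whether the pre-tx difference recurred elsewhere was asked by interaction tests, in which no library is shared between the comparisons. In CD4 post-tx libraries Cat-Tg minus WT under TMM was -1.04 for Ctla4 (edgeR adjusted p = 0.068), -0.6 for Cd40lg and -1.53 for Gzmk (adjusted p = 0.0156), and 2.22 for Cd79a (adjusted p = 0.00212). Per CD3 transcript Ctla4 (-0.46, adjusted p = 0.429), Cd40lg (-0.01, adjusted p = 0.992) and Gzmk (-0.92, adjusted p = 0.127) did not pass. In the fit of all 24 libraries, the post-tx CD3 chains averaged 1310 CPM in Cat-Tg and 2040 in WT. B cell genes there averaged 3200 and 989. The effect differed between post-tx and pre-tx in 3674 of 17237 genes (21.3%), and for Ctla4 the difference of effects was -5.16 (adjusted p = 1.33e-05) under TMM and -2.29 (adjusted p = 0.00251) per CD3 transcript. In CD8 pre-tx libraries, where WT also held B cell transcripts, Ctla4 was at 1.23 (adjusted p = 0.197), Cd4 at -5.74, Cd79a at -5.05 and Gzmk at 7.41. The CD8 and CD4 pre-tx effects differed in 179 of 19086 genes (0.938%), Cd4 (-7.33), Cd40lg (-5.63) and Gzmk (3.44) among them. The WT sorts hardly differed in Cd4 (-0.07), so its value largely sets the Cat-Tg CD8 sort against the Cat-Tg CD4 sort. For Gzmk, WT CD4 minus WT CD8 was 2.77 (adjusted p = 0.0603), a large part of its 3.44. Cd79a was lower in Cat-Tg in both pre-tx sorts and higher in Cat-Tg post-tx, where both genotypes' CD4 libraries were nearly free of Cd8a. Its post-tx CD4 levels were low, at 8.58 ± 4.48 CPM in Cat-Tg and 1.85 ± 0.603 in WT, against means of 145 and 2430 pre-tx.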

How the data were processed

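RNA of sorted spleen cells (total RNA, SMART-Seq HT cDNA, Nextera XT libraries) was quantified by the authors with Kallisto 0.46.2 per transcript, and the deposited files give estimated counts and TPM. The labels name the build mm9; the index release is not given in the sources used here. Estimated counts were summed to genes through GENCODE M21 by transcript ID without version (116374 of 117497 transcripts matched, with 99.57% to 99.75% of the counts, 35855 genes) and rounded. The deposited TPM served only for a length-scaled alternative and a check of library composition, and carries no depth.

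The 12 CD4 libraries were fitted together with edgeR 4.0.16 (R 4.3.3; glmQLFit with robust dispersion, glmQLFTest), keeping genes with over 1 CPM in at least 3 libraries (17237 genes). P-values were adjusted over all tested genes by the Benjamini-Hochberg method. Standard errors were obtained from the fold change and the F statistic (its size over the root of F). The CD3 scale set each effective library size in proportion to its Cd3e, Cd3d and Cd3g counts. The correction for GC content and length was a smooth per library (mgcv 1.9.3, basis size 6) with values for all tested genes. The interaction between CD8 and CD4 and the comparison of the WT sorts used a fit of all 24 libraries (19086 genes). limma 3.58.1 (voom) and DESeq2 1.42.0 were alternatives. The scripts were tested on simulated counts. Promoter windows are RefSeq's, build GRCm38.p6.

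Depth was 17103414 to 27015725 estimated counts. Floors cover counting error only. Samples of a genotype came from separate mice. Pre-tx CD4 and CD8 libraries come from the same mice, which was not modelled. The members and the gene lists were chosen with earlier results of these data known. Named genes are Ctnnb1, the chosen markers, the CD3 and CD8 chains, any member of a list of at most 20 tested genes or the 8 highest and 8 lowest of a longer one, the 5 highest and 5 lowest DEGs and the 10 highest genes per CD3 transcript (protein-coding, groups not overlapping, at least 10 CPM in the higher group). The study's own statistics were not used.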

Additional observations from a re-analysis of the deposited data

Results flagged for a closer look

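Several of the leading genes changed between settings of the same series, by the test of the difference itself (edgeR interaction contrast, 3 libraries in each of the 4 groups, adjusted over all genes tested). Ctla4, Gzmk, Nt5e and Ms4a6b lead because they were high in the pre-tx comparison, which the difference subtracts, so their choice favours negative values. Under TMM 78 of 152 T cell genes had a negative difference past the threshold and 12 a positive one. Among all 17237 genes these were 2424 and 1250. The CD3 chains differed by -1.25 (Cd3e), -2.86 (Cd3d) and -4.17 (Cd3g). Relative to pre-tx, the Cat-Tg effect in post-tx CD4 libraries differed under TMM by -5.16 for Ctla4 (adjusted p = 1.33e-05), -3.24 for Cd40lg (adjusted p = 0.000718), -2.21 for Cd4 (adjusted p = 0.00126), -5.66 for Gzmk (adjusted p = 1.2e-05), -3.24 for Nt5e (adjusted p = 0.0016) and -4.38 for Ms4a6b (adjusted p = 7.5e-05). Cd79a went the other way, by 6.29 (adjusted p = 2.81e-06), with low post-tx means of 8.58 CPM in Cat-Tg and 1.85 in WT. Per CD3 transcript the difference remained past the threshold for Ctla4 (-2.29, adjusted p = 0.00251), Gzmk (-2.84, adjusted p = 0.000601) and Ms4a6b (-1.51, adjusted p = 0.0162). For Cd40lg, Cd4 and Nt5e it was past the threshold under TMM alone. On the CD3 scale the chains themselves differed, by -1.3 for Cd3g (adjusted p = 0.00911) and 1.59 for Cd3e (adjusted p = 0.00109). The value of Ms4a6b thus lay near that of Cd3g. These differences carry no correction for GC content, whose gradient ran in opposite directions pre-tx and post-tx.

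Between the 2 pre-tx sorts, the Cat-Tg effect in CD8 minus that in CD4 libraries was -5.63 for Cd40lg (adjusted p = 0.00166), -7.33 for Cd4 (adjusted p = 2.41e-05) and 3.44 for Gzmk (adjusted p = 0.00947). Both WT pre-tx sorts carried Cd4 and Cd8a side by side. WT CD4 minus WT CD8 was -0.07 for Cd4 (edgeR adjusted p = 0.973) and -1.01 for Cd40lg (adjusted p = 0.459). For Gzmk it was 2.77 ± 0.524 (adjusted p = 0.0603), with the WT CD4 libraries at 1.01 to 2.39 CPM. A large part of the 3.44 of Gzmk was thus a difference between the WT sorts. For Cd4 and Cd40lg the contrast therefore largely sets the Cat-Tg CD8 sort against the Cat-Tg CD4 sort. Their direction went with the sorted cell type and is not read as a change of the genotype effect.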

How the results depend on the processing

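The count of DEGs under TMM (1320) moved to 859 with at least 10 counts in each library, to 669 with the correction for GC content and length, and to 3134 at an absolute log2 fold change of 1, and without 1 library it lay between 854 and 1456. Per CD3 transcript the count of genes past the same threshold (8669) moved to 2844 with 10 other T cell genes as reference, 1446 with Cd3e and 14148 with Cd3g, and lay between 6744 and 8692 without 1 library. T cell genes higher (9) became 29, 41 and 0 with those 3 references and 6 to 10 without 1 library, and T cell genes lower (84) became 50 and 33 with the first 2 and 73 to 88 without 1 library. CD4 lineage and regulatory genes higher (2) became 4 against Cd4 and 5 with the correction, and lower (10) became 4 and 5. DEGs between WT CD4 and WT CD8 libraries (3) became 1 with the replicate block and 1 to 4 without 1 library. The post-tx minus pre-tx differences (2513) became 1169 with the correction and 1660 to 2313 without 1 library, the lowest being without Cat-Tg replicate 2 (1660) and WT replicate 1 (1671). The CD8 minus CD4 differences (169) became 98 to 136 without 1 library, with 111 without Cat-Tg replicate 1, 98 without WT replicate 1 and 112 without WT replicate 3. The corrections of the CD3 scale and of the post-tx difference were chosen after seeing the data.

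Signs turned for these log2 fold changes, of which those called in the main result were Cd28, Tcf7 and Lef1. Ctnnb1 under TMM became -0.01 (no filter, DESeq2, DESeq2 size factors), -0.05 (10 counts), -0.02 (6 libraries, protein-coding genes), -0.23 to 0.4 without 1 library, and Axin2 -0.45 with length-scaled TPM and -0.21 to 0.83 without 1 library. Without 1 library Foxp3 per CD3 ranged from -0.3 to 0.23 and Pdcd1 from -0.14 to 0.32. With the correction Cd40lg became -0.24 and Cd4 0.22 per CD3. Cd4 became 0.55 with 10 other T cell genes and 0.93 with Cd3e, where Tcf7 became 0.35 and Lef1 0.26. With Cd3g alone the values were -0.71 for Cd40lg, -0.27 for Cd28, -0.11 for Icos, -1.09 for Foxp3, -0.75 for Il2ra, -0.46 for Ikzf2, -1.05 for Pdcd1, -0.69 for Izumo1r, -0.97 for Tnfrsf4, -0.79 for Rora and -0.04 for Il4. The cause was not tested. The composition measures kept their direction on TPM.

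Same-numbered Cat-Tg and WT mice are different animals, and the correlations of their deviations were 0.0718, -0.0104 and -0.152, so the numbers were not taken as pairs. With the replicate block 13 T cell genes were higher per CD3 transcript.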
